A study of Mus musculus with 6 samples.

Results

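The TGF-β and BMP genes described here are 52 named ligands, latency proteins, receptors, antagonists, SMADs and Id targets, each matched by its symbol to 1 of the 56980 genes in the deposited table. The rule that picks them uses names and roles and no measured value, although the list was drawn up with earlier results of these data known. They were measured in MSCs of the bone marrow (BM), the plastic-adherent stromal cells that can form osteoblasts and adipocytes. Every donor of MSCs was a female mouse that had both ovaries removed (OVX) at 8 weeks of age, lost its own gut microbiota to antibiotics and then received fecal microbiota transplantation (FMT) by gavage for 8 weeks. The fecal supernatant came from sedentary osteoporotic mice in the TranspCtrl group (3 samples) and from treadmill-trained osteoporotic mice in the TranspExer group (3 samples), so by design the groups differed in the training of the stool donor. The strain, and whether a sample was 1 mouse or a pool, are not given in the sources used here. The MSCs were flushed marrow cells cultured for 7 days with washes, and no sorting step is described. If the samples of a group were not separate mice, the p-values measure only technical spread.

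Ligands of the TGF-β family are secreted dimers that bring together type II and type I serine/threonine kinase receptors. TGF-βs and activins signal through SMAD2 and SMAD3, BMPs through SMAD1, SMAD5 and SMAD9, and both branches share SMAD4. TGF-β is secreted in a latent complex held in the matrix by LTBPs, while BMPs are held back by secreted traps such as noggin, chordin and gremlin. In bone marrow, BMPs drive osteoblast commitment, TGF-β couples resorption to formation, and in vessels a branch through ALK1 (*Acvrl1*) and endoglin (*Eng*) turns on the *Id* genes, whose products block basic helix-loop-helix transcription factors.

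Total counts ranged from 17647662 to 21319213 per sample, and 3 counts, the floor used here, equalled between 0.141 and 0.17 CPM of the unscaled library total, for counting error only. CPM below are counts relative to the TMM-scaled library total. TranspCtrl replicate 1 stood apart from the other TranspCtrl samples. The biological coefficient of variation was 0.166 in TranspCtrl and 0.0596 in TranspExer. Of 11 marrow stromal markers, all passed the filter on low counts, and their summed level was 14435 CPM in TranspCtrl replicate 1, 21754 to 22692 CPM in the other TranspCtrl samples and 13697 to 15001 CPM in TranspExer. *Col1a1* decided the place of TranspCtrl replicate 1, since the other 10 markers summed to 9872 CPM there, 12141 to 12741 CPM in the other TranspCtrl samples and 6902 to 7293 CPM in TranspExer. Markers of blood cells were present beside them. The 10 macrophage markers summed to 14040 CPM in TranspCtrl replicate 1 and 8969 to 9264 CPM in the other TranspCtrl samples. In TranspExer they summed to between 7107 and 7845 CPM. *Lyz2* alone had 9102 CPM in TranspCtrl replicate 1 and 4896 to 5238 CPM in the other TranspCtrl samples. In such mixed cultures, fewer cells of a type and less RNA per cell cannot be told apart. Erythroid markers were near 0, with *Hbb-bs*, *Klf1* and *Alas2* at 3 counts or fewer in every sample.

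Of the 52 genes, 47 passed the filter on low counts. Between TranspCtrl and TranspExer, 10 of these were higher and 7 lower in TranspExer at an adjusted p-value under 0.05 (edgeR quasi-likelihood test). Those are 21.3% and 14.9% of the tested genes, where 16.6% of all 15190 tested genes were higher and 15.5% lower. The 7 lower genes include *Chrd*, which passed the filter only through TranspCtrl, and without it 6 of 46 (13%) were lower. When a fold change of at least 2 was required as well, as in the methods of the study, 5 of the 47 genes (10.6%) were upregulated, against 3.5% of all tested genes, and 1 (2.13%) was downregulated, against 5.28%. The upregulated genes were *Bmp2*, *Eng*, *Gdf15*, *Tgfb1* and *Id2*, and the downregulated gene was *Chrd*. The 3 TranspExer samples did not overlap the 3 TranspCtrl samples for 30 of the 47 genes (63.8%), and for 52.4% of all tested genes. The median log2 fold change was 0.15 over the 47 genes and -0.02 over all tested genes. Under scaling by library size alone, the calls over all genes shifted from 2523 higher and 2361 lower to 2013 higher and 2963 lower, while those of the pathway were 10 higher and 10 lower.

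TranspCtrl replicate 1 lay below both other TranspCtrl samples for 35 of the 47 genes and above both for 7, where it lay below both for 45.1% of all tested genes. Without this sample, 17 of the 47 genes were higher and 15 lower (36.2% and 31.9%), where 22.1% of all genes tested in that fit were higher and 19.6% lower. All 17 genes called with 6 samples kept their call and direction in that fit, and 15 genes were added. The 17 include *Chrd*, which passed the filter only through TranspCtrl, and without it 16 genes were called with 6 samples.

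**Figure D1:**
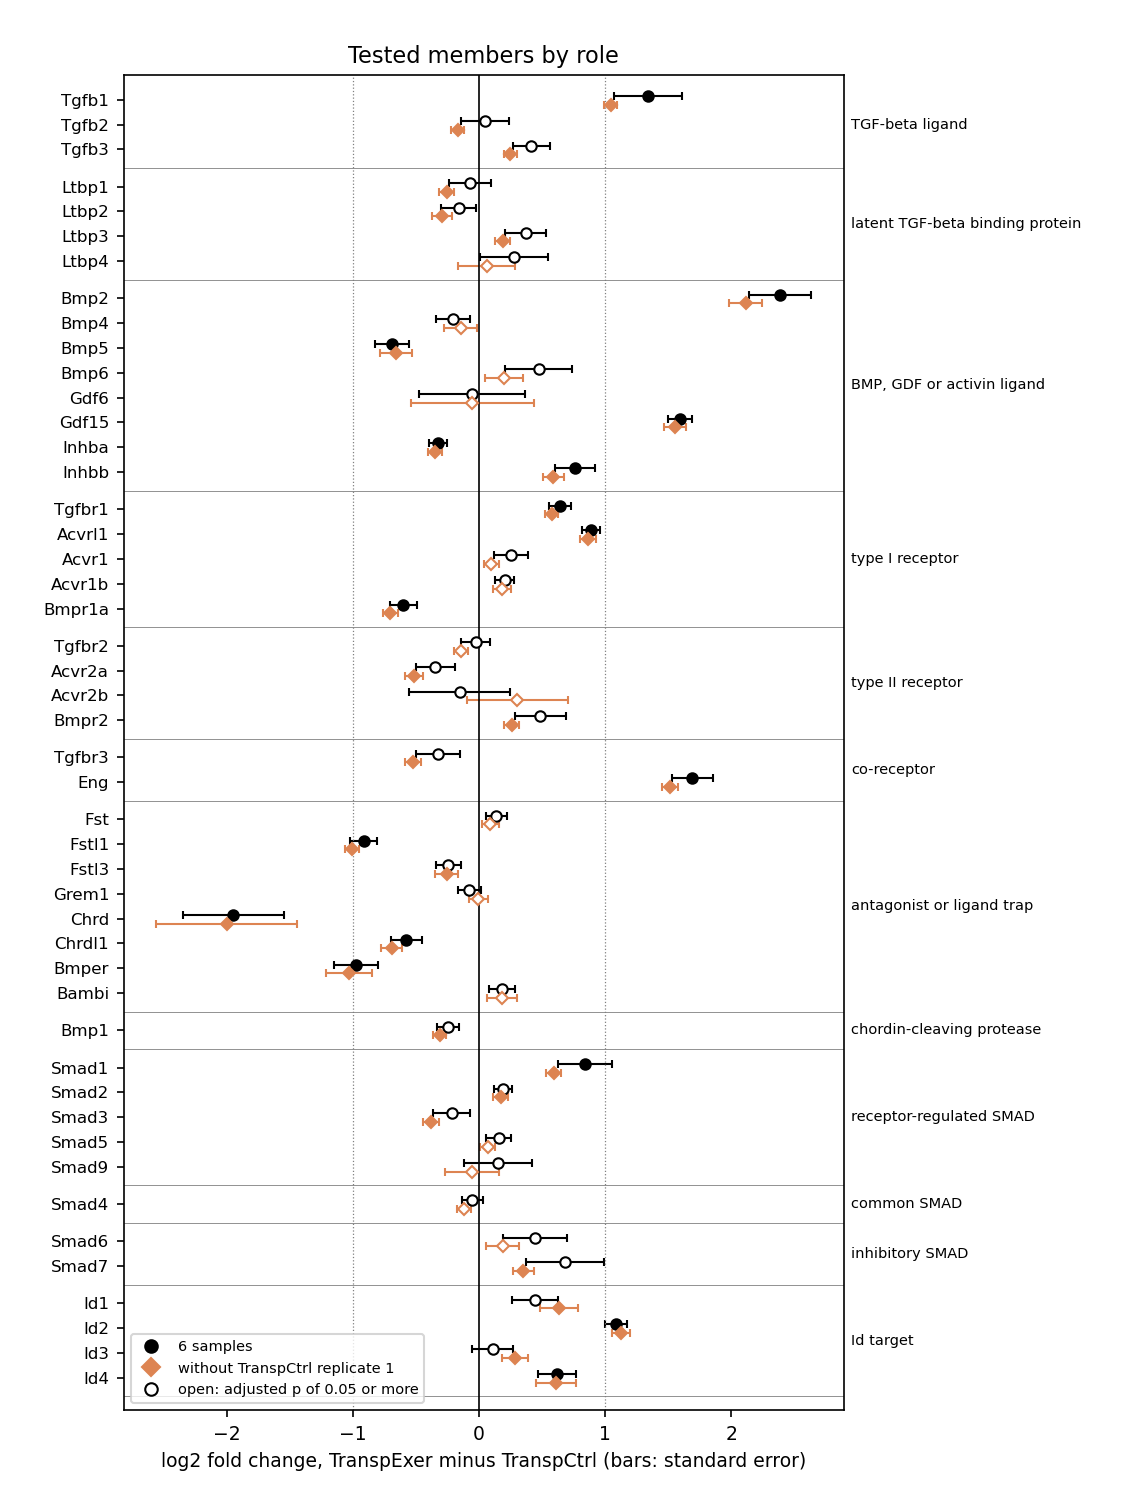
Log2 fold changes (TranspExer minus TranspCtrl, x axis) of the 47 tested genes by role, with standard errors, for all 6 samples (circles) and without TranspCtrl replicate 1 (diamonds). Filled symbols passed an adjusted p-value of 0.05, as 10 higher and 7 lower genes did with 6 samples and 17 and 15 without the replicate. The lower genes include *Chrd*, kept by the filter on low counts only through TranspCtrl.

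Ranked by CPM per kb of the deposited gene length, the only scale on which levels of different genes are compared here, *Fstl1*, a secreted follistatin-like glycoprotein, led in TranspCtrl with 317 CPM per kb, a range of 275 to 342 over the samples. *Tgfb1* followed with 103 CPM per kb and a range of 56.8 to 127, then *Inhba* (93.1), *Bmp1* (75.8) and *Tgfb3* (50.5). The range of *Tgfb1* overlapped those of *Inhba*, *Bmp1* and *Tgfb3*. It was below *Inhba* and *Bmp1* in TranspCtrl replicate 1 and above them in the other TranspCtrl samples, so its order against them was not settled. Against *Tgfb3* it was higher in every TranspCtrl sample. In TranspExer *Tgfb1* led with 261 CPM per kb, followed by *Fstl1* with 168 and *Id2* with 104, where *Id2* had 48.9 CPM per kb in TranspCtrl. Among receptors, *Tgfbr2* was the highest in TranspCtrl with 35 CPM per kb and *Eng* the highest in TranspExer with 48.9, up from 15.1. BMP ligands were low, with at most 4.9 CPM per kb for *Bmp4* in TranspCtrl and 5.33 for *Bmp2* in TranspExer.

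**Figure D2:**
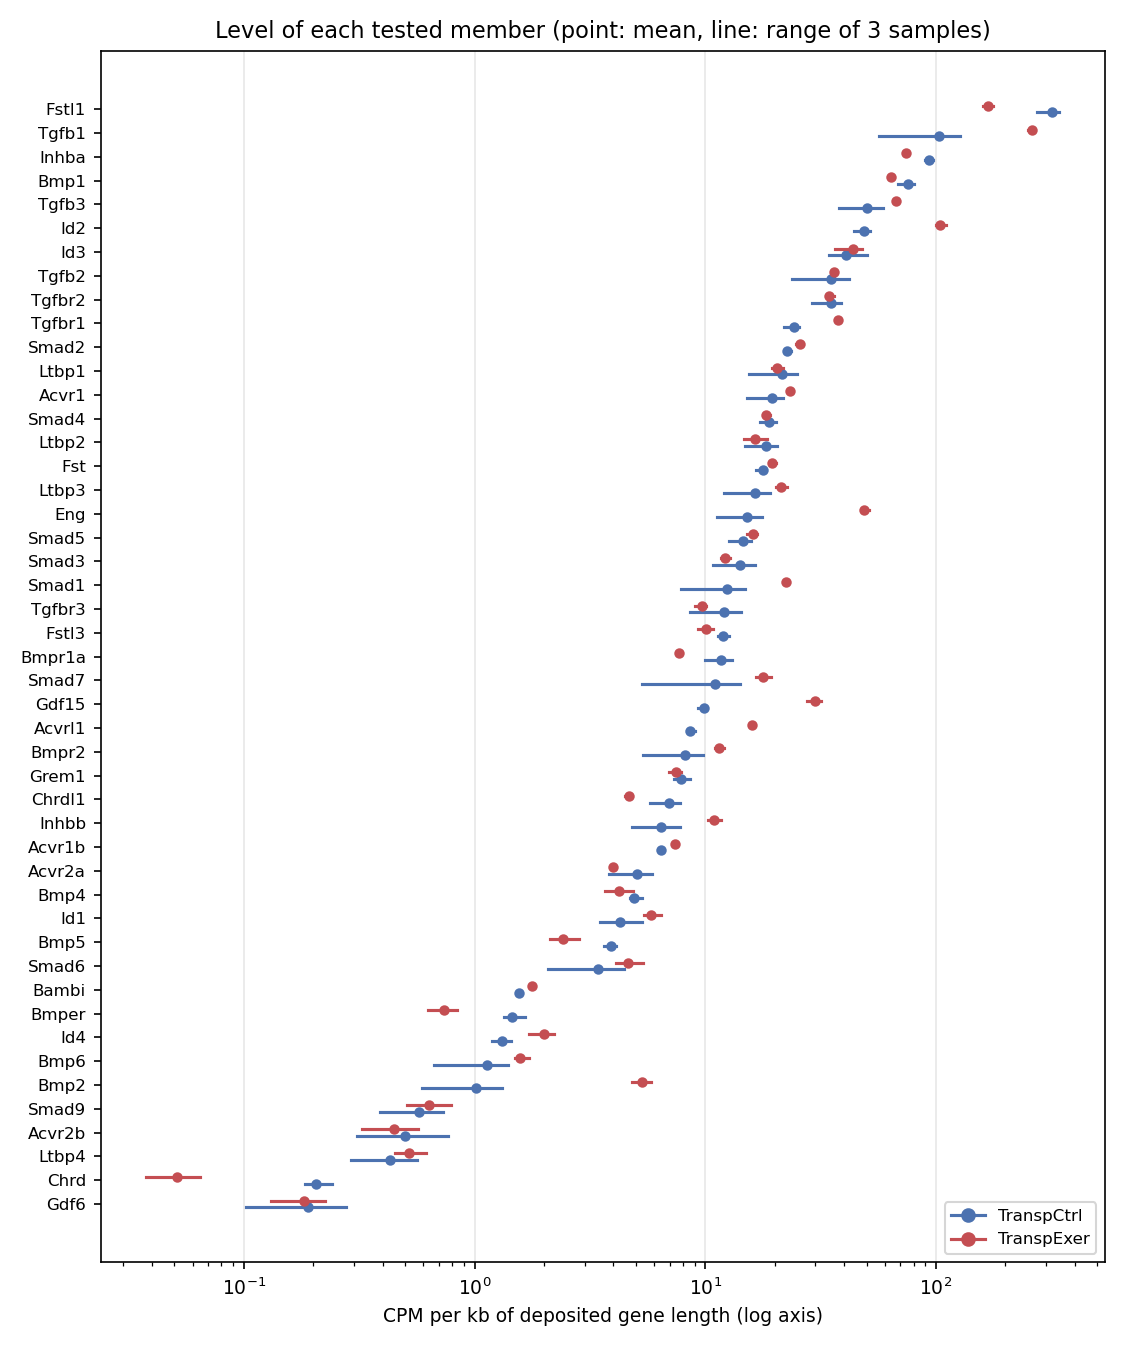
Level of each of the 47 tested genes in CPM per kb of gene length (log axis), with the mean as a point and the range of the 3 samples as a line for TranspCtrl (blue) and TranspExer (red), ordered by TranspCtrl. *Fstl1* led in TranspCtrl with 317 and *Tgfb1* in TranspExer with 261.

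Among the TGF-β ligands, *Tgfb1*, the isoform made by blood and vessel cells and stored in bone matrix, rose. *Tgfb1* (ENSMUSG00000002603, chr7:25687002-25705077) had 124, 276 and 273 CPM in TranspCtrl replicates 1, 2 and 3, and 572, 545 and 583 CPM in TranspExer replicates 1, 2 and 3. Every TranspExer sample was well above the highest TranspCtrl sample, and TranspCtrl replicate 1 lay far below the others. The log2 fold change was 1.34 (standard error 0.27, edgeR adjusted p = 0.00835), and 1.04 without TranspCtrl replicate 1 (adjusted p = 9.11e-09). Without TranspExer replicate 1, 2 or 3, the edgeR adjusted p was 0.0338, 0.0305 and 0.0385. *Tgfb3* had 129, 199 and 185 CPM in TranspCtrl and 229, 229 and 225 CPM in TranspExer. Its groups did not overlap, with a log2 fold change of 0.41 (edgeR adjusted p = 0.0677), and with 6 samples it passed by DESeq2 (adjusted p = 0.0379) and in edgeR without a low-count filter (adjusted p = 0.0273) or with a replicate block (adjusted p = 0.0495). It also passed without TranspCtrl replicate 1 (0.25, edgeR adjusted p = 0.00237) and without TranspCtrl replicate 2 (0.54, adjusted p = 0.0366). *Tgfb2* had 82.7, 146 and 138 CPM in TranspCtrl and 126 CPM in each TranspExer sample, and the sign of its log2 fold change turned from 0.048 (edgeR adjusted p = 0.862) to -0.17 (adjusted p = 0.0198) without TranspCtrl replicate 1.

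The latent TGF-β binding proteins, which tether the ligand to fibrillin-rich matrix, did not pass the test with 6 samples. None of *Ltbp1*, *Ltbp2*, *Ltbp3* and *Ltbp4* passed in edgeR or DESeq2, and none had an unadjusted p-value under 0.05. *Ltbp1* had 96.9 to 155 CPM in TranspCtrl and 122 to 135 CPM in TranspExer, and *Ltbp2* 101 to 139 and 99.8 to 126 CPM, so both overlapped. *Ltbp3* had 62.5 to 99 CPM in TranspCtrl and 105 to 117 CPM in TranspExer, without overlap. *Ltbp4* was low, with 32 to 67 counts per sample. Without TranspCtrl replicate 1, *Ltbp1* (log2 fold change -0.26) and *Ltbp2* (-0.29) were lower and *Ltbp3* (0.19) higher, with edgeR adjusted p-values of 0.00332, 0.011 and 0.0251.

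Of the 11 BMP, GDF and activin ligands, 8 were tested, 3 rose (37.5%, against 16.6% of all tested genes) and 2 fell (25%, against 15.5%). *Bmp2*, a potent osteoinductive ligand that endothelial cells also make, had the largest log2 fold change of all 47 genes. *Bmp2* (ENSMUSG00000027358, chr2:133552159-133562885) had 2.1, 4.67 and 4.09 CPM in TranspCtrl replicates 1, 2 and 3, and 19, 17.1 and 20.7 CPM in TranspExer replicates 1, 2 and 3. The lowest TranspExer sample was well above the highest TranspCtrl sample, and the log2 fold change was 2.39 (standard error 0.25, edgeR adjusted p = 0.000405), or 2.11 without TranspCtrl replicate 1. *Gdf15*, a stress-induced distant member of the family that signals through GFRAL in the hindbrain, rose as well. *Gdf15* (ENSMUSG00000038508, chr8:70629393-70632456) had 12.9, 13.9 and 14.1 CPM in TranspCtrl and 41.5, 43.8 and 38 CPM in TranspExer. Replicates of both groups were close together, and the log2 fold change was 1.59 (standard error 0.09, edgeR adjusted p = 4.66e-05). *Inhbb*, the activin βB subunit, had 20.6, 33 and 28.9 CPM in TranspCtrl and 45.5, 43.9 and 50 CPM in TranspExer. Its groups did not overlap and its log2 fold change was 0.76 (standard error 0.16, edgeR adjusted p = 0.00989).

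*Bmp5*, a ligand of the BMP7 subgroup, and *Inhba*, the activin βA subunit, fell. *Bmp5* had 15.7, 13.9 and 15.3 CPM in TranspCtrl and 10.8, 8.08 and 8.84 CPM in TranspExer, all below the lowest TranspCtrl sample. The log2 fold change was -0.69 (standard error 0.13, edgeR adjusted p = 0.00659). *Inhba* had 138, 148 and 141 CPM in TranspCtrl and 114, 114 and 112 CPM in TranspExer. This small shift, a log2 fold change of -0.33 (standard error 0.07, edgeR adjusted p = 0.0112), was larger than the spread of either group, and its adjusted p-value was 0.0501 without TranspExer replicate 2. The activin subunits thus moved in opposite directions.

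The other ligands did not pass the test or were too low to be tested. *Bmp4* had 9.7 to 10.9 CPM in TranspCtrl and 7.56 to 9.99 CPM in TranspExer (log2 fold change -0.21, edgeR adjusted p = 0.272). *Bmp6* had 2.39 to 5.03 and 5.36 to 6.16 CPM (0.47, adjusted p = 0.201, and 0.20 without TranspCtrl replicate 1). It shares 224 exon bases with *Txndc5* on the opposite strand, which had 545 to 573 CPM in TranspCtrl and 280 to 303 CPM in TranspExer, and whether reads were counted by strand is not given in the sources used here. *Gdf6* had 7 to 21 counts per sample and a log2 fold change of -0.058 (edgeR adjusted p = 0.926). *Bmp7*, *Gdf5* and *Gdf10* did not pass the filter on low counts, with 2 to 7, 0 to 3 and 0 to 4 counts per sample, so a difference was not detectable at this depth. *Gdf5* had 0 counts in every TranspCtrl sample, which allows up to 3 counts each.

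Of the 12 receptors and co-receptors, 11 were tested, 3 rose (27.3%, against 16.6% of all tested genes) and 1 fell (9.09%, against 15.5%). *Eng* (endoglin, ENSMUSG00000026814, chr2:32646595-32682669), a co-receptor abundant on endothelium and also used as a surface marker of MSCs, had 38.3, 60.5 and 56.6 CPM in TranspCtrl and 162, 164 and 176 CPM in TranspExer. All TranspExer samples were far above all TranspCtrl samples, with a log2 fold change of 1.69 (standard error 0.16, edgeR adjusted p = 0.000285). It shares 61 exon bases with *Fpgs* on the opposite strand, which had 17.7 to 19.4 CPM over all samples. *Acvrl1*, the endothelial type I receptor ALK1 for BMP9 and BMP10, had 29.3, 29.6 and 31.7 CPM in TranspCtrl and 55.8, 56 and 55.9 CPM in TranspExer. The replicates were nearly level within each group and the log2 fold change was 0.89 (standard error 0.07, edgeR adjusted p = 0.000137). *Tgfbr1*, the type I receptor ALK5 for TGF-β, had 126, 147 and 144 CPM in TranspCtrl and 216, 217 and 218 CPM in TranspExer. Its groups did not overlap, and the difference was 0.64 on the log2 scale (standard error 0.08, edgeR adjusted p = 0.00123).

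*Bmpr1a*, the type I receptor ALK3 through which BMP2 and BMP4 act on skeletal progenitors, fell. It had 59.4, 77.9 and 71.1 CPM in TranspCtrl and 44.8, 46.7 and 45.8 CPM in TranspExer. The groups did not overlap, and the log2 fold change was -0.60 (standard error 0.11, edgeR adjusted p = 0.0044), or -0.70 without TranspCtrl replicate 1. *Bmpr1b*, its close relative, had 0 to 3 counts per sample and was not tested. *Acvr1* (ALK2) and *Acvr1b* (ALK4) did not overlap between groups, with log2 fold changes of 0.25 and 0.20 (edgeR adjusted p = 0.188 and 0.0719), and that of *Acvr1* was 0.098 without TranspCtrl replicate 1.

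With 6 samples, none of the 4 type II receptors passed DESeq2 or the main edgeR test (filter on low counts, TMM scaling, no replicate block). In that edgeR test 1 of them, *Bmpr2*, had an unadjusted p-value under 0.05. *Tgfbr2* had 236 to 315 CPM in TranspCtrl and 269 to 293 CPM in TranspExer (log2 fold change -0.028, edgeR adjusted p = 0.871). *Bmpr2* had 69.5, 126 and 120 CPM in TranspCtrl and 142, 145 and 156 CPM in TranspExer, and *Acvr2a* 21.8, 33.4 and 31.6 CPM against 23.1, 22.6 and 22.4 CPM. In both genes TranspCtrl replicate 1 lay well below the other TranspCtrl samples. Without it their log2 fold changes were 0.26 and -0.52 (edgeR adjusted p = 0.00338 and 9.9e-05). With 6 samples in edgeR, *Bmpr2* passed without a low-count filter (adjusted p = 0.0301) and with a replicate block (adjusted p = 0.0449), and *Acvr2a* passed under upper-quartile scaling (adjusted p = 0.049) and scaling by library size (adjusted p = 0.0447). *Acvr2b* had 13 to 33 counts per sample and a log2 fold change of -0.15 (edgeR adjusted p = 0.786), which was 0.30 without TranspCtrl replicate 1. *Tgfbr3* (betaglycan), the other co-receptor, had 52.3, 87.3 and 81.2 CPM in TranspCtrl and 55.1, 59.5 and 61.3 CPM in TranspExer, so its direction was that of *Acvr2a*, with a log2 fold change of -0.33 (edgeR adjusted p = 0.182) and of -0.52 without TranspCtrl replicate 1 (adjusted p = 2.68e-05).

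**Figure D3:**
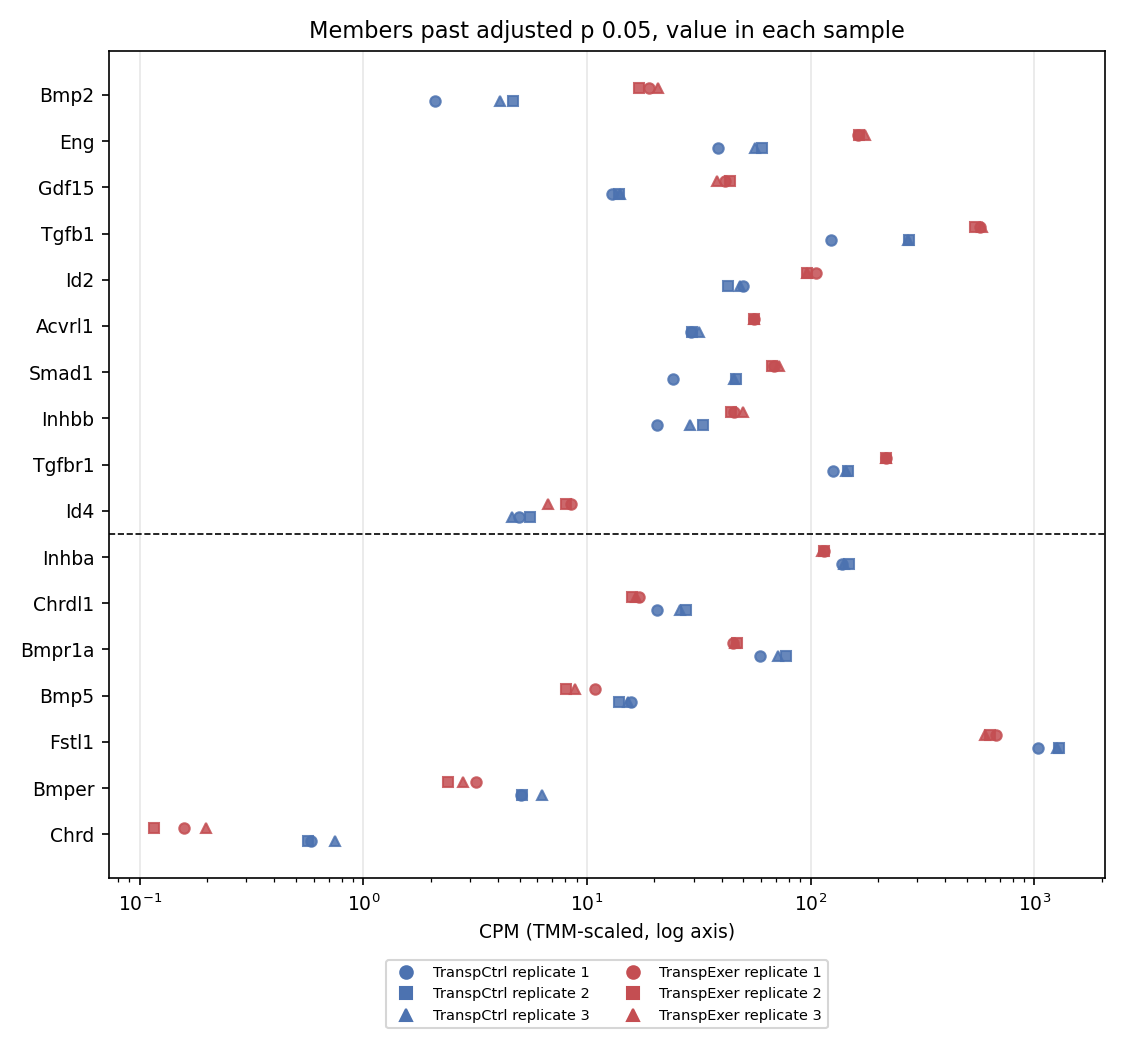
CPM (log axis) in each of the 6 samples for the 17 genes past an adjusted p-value of 0.05, ordered by log2 fold change, with the 10 higher genes above the dashed line and the 7 lower genes under it. The groups do not overlap for any of the 17, as for 99.9% of all called genes. The 17 include *Chrd*, which passed the filter on low counts only through TranspCtrl. TranspCtrl replicate 1 lies apart below the other TranspCtrl samples for genes such as *Bmp2*, *Eng*, *Tgfb1* and *Smad1*.

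Of 9 antagonists and ligand traps, 8 passed the filter on low counts. *Fstl1*, *Bmper* and *Chrdl1* fell and 0 rose in edgeR, where 16.6% of all tested genes were higher, with 0 higher also by DESeq2 and at an unadjusted p-value of 0.05 in edgeR. *Chrd* was also called lower, but it passed the filter only through TranspCtrl, where it is high, so it is described apart. Without *Chrd*, 3 of 7 (42.9%) were lower, against 15.5% of all tested genes. *Fstl1*, the most abundant of them, had 1043, 1295 and 1264 CPM in TranspCtrl and 673, 634 and 603 CPM in TranspExer. All TranspExer samples were below all TranspCtrl samples, and the log2 fold change was -0.92 (standard error 0.11, edgeR adjusted p = 0.000737). *Bmper*, a crossveinless-2 homologue that binds BMPs, had 5.08, 5.13 and 6.28 CPM in TranspCtrl and 3.19, 2.38 and 2.78 CPM in TranspExer, which is -0.98 on the log2 scale (standard error 0.18, edgeR adjusted p = 0.00526). *Chrdl1*, a chordin-like BMP4 trap, had 20.6, 27.6 and 25.9 CPM in TranspCtrl and 17.2, 15.9 and 16.6 CPM in TranspExer, which is -0.58 on the log2 scale (standard error 0.12, edgeR adjusted p = 0.0108). Neither gene's groups overlapped.

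*Chrd* (chordin, ENSMUSG00000006958, chr16:20733127-20742384), the prototype BMP trap, was barely expressed. It had 12, 11 and 16 counts in TranspCtrl and 3, 2 and 4 counts in TranspExer, so it passed the filter on low counts only through TranspCtrl. The summed counts of 39 and 9 gave a ratio of 3.98 after scaling, with an exact 95% interval of 1.9 to 9.34 for counting error only. Because the filter kept it through the group where it is high, its edgeR call in the filtered fit is not read as a result, and the adjusted p was 0.0186 in edgeR with no low-count filter. It shares 239 exon bases with *Thpo* on the opposite strand, which held 8 counts in all. *Nog* (noggin) had 2 to 11 counts per sample and was not tested.

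The remaining antagonists did not pass the test with 6 samples and TMM scaling. *Grem1* (gremlin), a BMP trap of marrow stroma, had 30.5 to 35.8 CPM in TranspCtrl and 29 to 32.4 CPM in TranspExer (log2 fold change -0.077, edgeR adjusted p = 0.546). *Fst* (follistatin), which traps activins, had 30.6 to 34 and 35.2 to 37.5 CPM (0.14, adjusted p = 0.221). *Bambi*, a receptor decoy without a kinase domain, had 7.86 to 8.01 and 8.89 to 9.12 CPM (0.18, adjusted p = 0.218). *Fst* and *Bambi* did not overlap between groups, as for 52.4% of all tested genes. *Fstl3*, another activin trap, had 22.3 to 24.7 CPM in TranspCtrl and 18.2 to 21.1 CPM in TranspExer (-0.24, edgeR adjusted p = 0.0869), and it passed with upper-quartile scaling (adjusted p = 0.0375), with scaling by library size (adjusted p = 0.035) and without TranspCtrl replicate 1 (adjusted p = 0.0381). It shares 1157 exon bases with *Prss57* on the opposite strand, a granule protease gene that had 4.93 to 6.37 CPM in TranspCtrl and 22.3 to 23.3 CPM in TranspExer. *Bmp1*, a protease that cleaves chordin and procollagens and is no ligand, had 253 to 296 and 228 to 243 CPM without overlap. Its log2 fold change was -0.25 (edgeR adjusted p = 0.0634), and it passed by DESeq2 (adjusted p = 0.045) and under scaling by library size alone (-0.33, edgeR adjusted p = 0.0114). It also passed in edgeR with upper-quartile scaling (adjusted p = 0.0125), with immunoglobulin genes left out (adjusted p = 0.0441), with at least 1 CPM in 3 samples (adjusted p = 0.0362) and without TranspCtrl replicate 1 (adjusted p = 0.000308).

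Of the 8 SMADs, all were tested, and *Smad1* alone passed with 6 samples and the filter on low counts (12.5% higher, against 16.6% of all tested genes). *Smad1*, a mediator of the BMP branch, had 24.3, 46.1 and 45.6 CPM in TranspCtrl and 68.3, 67.2 and 71.8 CPM in TranspExer. The groups did not overlap, and the log2 fold change was 0.84 (standard error 0.22, edgeR adjusted p = 0.0212). The call was lost without TranspExer replicate 1, 2 or 3, with adjusted p-values of 0.0649, 0.0618 and 0.0779, and it held at 0.59 without TranspCtrl replicate 1 (adjusted p = 5.41e-06). The other mediators of that branch, *Smad5* (58.1 to 71.9 CPM in TranspCtrl, 69.5 to 76.2 CPM in TranspExer) and *Smad9* (43 to 81 counts per sample), overlapped between groups.

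*Smad2* and *Smad3*, which carry the TGF-β and activin signal, had log2 fold changes of opposite sign, and neither passed the test with 6 samples. *Smad2* had 53.6 to 56.9 CPM in TranspCtrl and 59.8 to 64.2 CPM in TranspExer (log2 fold change 0.19, edgeR adjusted p = 0.0796), and it passed without TranspCtrl replicate 1 (0.17, adjusted p = 0.0391). *Smad3* had 55.1, 83.3 and 78.3 CPM in TranspCtrl and 59.5, 65.4 and 61.2 CPM in TranspExer (-0.22, adjusted p = 0.281), and its log2 fold change was -0.38 without TranspCtrl replicate 1 (adjusted p = 0.000275). *Smad4*, the shared partner, had 58.3 to 68.5 and 60.3 to 64.6 CPM. The inhibitory *Smad7*, a feedback target of TGF-β, had 10.1, 25.9 and 26.5 CPM in TranspCtrl and 36.3, 31.2 and 32.7 CPM in TranspExer. TranspCtrl replicate 1 lay far below the other samples. The log2 fold change was 0.68 (standard error 0.31, edgeR adjusted p = 0.125), against 0.35 without that sample (adjusted p = 0.00356), and it passed with 6 samples in edgeR without a low-count filter (adjusted p = 0.0308). *Smad6*, the feedback inhibitor of the BMP branch, had 6.2 to 13.2 and 12.2 to 15.9 CPM (0.44, adjusted p = 0.209, and 0.19 without TranspCtrl replicate 1).

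The 4 *Id* genes all had positive log2 fold changes, as 48.4% of all tested genes did, and *Id2* and *Id4* rose (50%, against 16.6% of all tested genes). *Id2* (ENSMUSG00000020644, chr12:25093799-25097140) had 49.6, 42.5 and 48.4 CPM in TranspCtrl and 106, 96.2 and 96.3 CPM in TranspExer. The TranspExer samples were all above the TranspCtrl samples, by a log2 fold change of 1.09 (standard error 0.09, edgeR adjusted p = 0.000137), which was 0.997, just below a fold change of 2, under scaling by library size alone. *Id4* had 4.98, 5.55 and 4.6 CPM in TranspCtrl and 8.47, 8.08 and 6.66 CPM in TranspExer, without overlap. Its log2 fold change was 0.62 (standard error 0.15, edgeR adjusted p = 0.017), and the call was lost without TranspCtrl replicate 3, TranspExer replicate 1 or TranspExer replicate 2 (adjusted p = 0.0557, 0.0709 and 0.0695). *Id1*, often the most BMP-responsive of them, had 6.15, 4.06 and 4.6 CPM in TranspCtrl and 7.43, 6.45 and 6.31 CPM in TranspExer. These groups did not overlap, and the log2 fold change was 0.45 (edgeR adjusted p = 0.095), or 0.63 without TranspCtrl replicate 1 (adjusted p = 0.00505). *Id3* had 64.1, 43.8 and 48.1 CPM in TranspCtrl and 60.4, 61.2 and 46.6 CPM in TranspExer, so its groups overlapped (0.11, edgeR adjusted p = 0.631), and it passed at 0.28 without TranspCtrl replicate 1 (adjusted p = 0.0418). TranspCtrl replicate 1 was the highest TranspCtrl sample for *Id1*, *Id2* and *Id3*, whereas it was the lowest for most genes of the pathway.

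Markers of other cell types moved between the same groups. All 12 endothelial markers passed the test and were higher in TranspExer, and their summed level was 228 to 280 CPM in TranspCtrl and 774 to 832 CPM in TranspExer, 3.1 times as high. *Eng*, *Acvrl1* and *Bmp2* are also genes of endothelium, and the part of endothelial RNA in their rise was not tested. The summed level of 7 megakaryocyte or platelet markers was 1.79 times as high, from 265 to 321 CPM in TranspCtrl to 501 to 533 CPM in TranspExer, with 5 of 7 higher. These cells carry *Tgfb1*, and their part in its values was not tested. Of the 11 stromal markers, 7 were lower and 1 higher at an adjusted p-value of 0.05, and their part in the values of *Fstl1*, *Bmper*, *Chrdl1* and *Bmpr1a* was not tested. In the other lists, 7 of 8 B or plasma cell markers were lower (summed level 0.14 times as high), all 4 osteoclast markers that reached the low-count cutoff in both groups lower (0.32 times for the list of 6, which also holds *Calcr* and *Oscar*, kept by the filter only through TranspCtrl) and 5 of 6 markers of eosinophils, basophils or mast cells higher (2.97 times). Macrophage markers, 2 of 10 higher and 2 lower, summed to 0.7 times the TranspCtrl level, a ratio that rests on *Lyz2*, since the other 9 summed to 4027 to 4938 CPM in TranspCtrl and 4511 to 4679 CPM in TranspExer (1.06 times). Of the neutrophil markers, 1 of 8 was higher and 1 lower, and of the T or NK cell markers 1 of 7 (*Nkg7*) was higher, leaving out *Cd3d*, which the filter kept only through TranspCtrl.

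**Figure D4:**
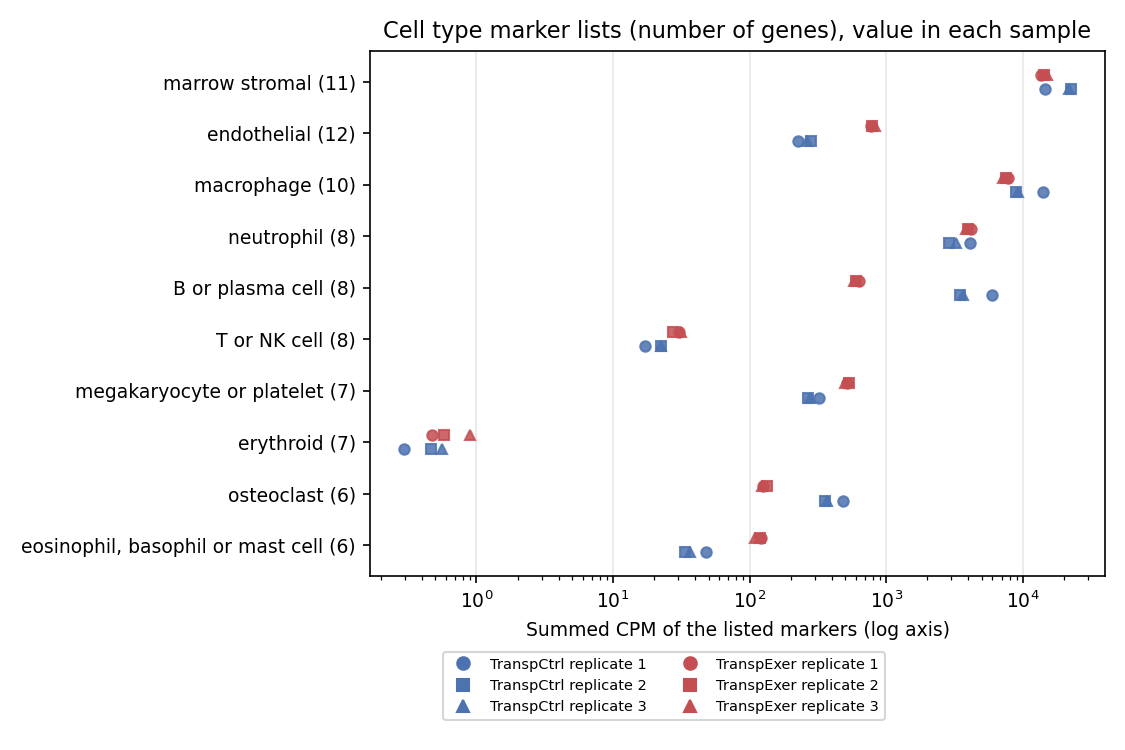
Summed CPM (log axis) of each cell type marker list in the 6 samples, with the number of genes in brackets. The endothelial sum is 228 to 280 CPM in TranspCtrl and 774 to 832 CPM in TranspExer, and the stromal sum of TranspCtrl replicate 1 lies within the range of TranspExer through *Col1a1*, without which it is 9872 CPM against 6902 to 7293 CPM.

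Beyond the 52 genes, a list of 88 other genes of the pathway held 59 tested genes, of which 16 were higher and 15 lower in TranspExer (27.1% and 25.4%, where 16.6% and 15.5% of all tested genes were). Without TranspExer replicate 2, 10 were higher and 11 lower, while the shares over all tested genes fell to 8.42% and 8.48%. Past both thresholds there were 5 upregulated and 5 downregulated genes (8.47% each, against 3.5% and 5.28% of all tested genes). The 8 of these with the smallest adjusted p-values were *Gdf3*, *Dcn*, *Col3a1*, *Cdkn2b*, *Htra1*, *Gata2*, *Sp7* and *Hey1*, and the other 2, named after their values were seen, were the BMP-binding *Crim1* (log2 fold change 1.10) and the chordin-cleaving protease *Tll1* (1.85). *Gdf3*, a BMP-like ligand, went from 9.12 ± 0.44 CPM (SD of 3 samples) to 27.9 ± 1.33 CPM, a rise of 1.61 on the log2 scale (edgeR adjusted p = 4.66e-05). *Dcn* (decorin), a proteoglycan that binds TGF-β, went from 13.8 ± 0.773 CPM (SD of 3 samples) to 4.06 ± 0.192 CPM, or -1.76 on the log2 scale (edgeR adjusted p = 6.68e-05). *Htra1*, a protease that acts on family members, had a log2 fold change of -1.12 (edgeR adjusted p = 0.000304).

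Response genes of each branch were counted apart, and the difference between the branches was not tested. Of 12 genes known to respond to TGF-β, 2 were higher (16.7%, against 16.6% of all tested genes) and 6 lower (50%, against 15.5%). *Ccn2*, a direct SMAD3 target, had a log2 fold change of 0.62 (edgeR adjusted p = 0.00723), while *Col3a1*, a fibrillar collagen, had one of -1.28 (adjusted p = 8.1e-05) and *Cdkn2b*, a cell cycle inhibitor, one of -1.54 (adjusted p = 0.000249). Of the 88 genes, 2 (*Col1a1* and *Col3a1*) are also in the stromal marker list above, whose sum was 0.73 times as high in TranspExer. Of 7 tested genes known to respond to BMP, 3 were higher (42.9%) and 1 lower (14.3%). The transcription factor genes *Hey1* and *Gata2* had log2 fold changes of 1.30 and 1.42 (edgeR adjusted p = 0.00161 and 0.000866). *Atoh8* had one of 0.65 (edgeR adjusted p = 0.0183), and *Sp7*, the osteoblast factor osterix, one of -1.07 (edgeR adjusted p = 0.00108). *Atoh8* lost its call in 2 of 6 fits with a sample left out. Markers of endothelium, of megakaryocytes or platelets, and of eosinophils, basophils or mast cells also rose, as given above. Their part in the values of *Hey1* and *Gata2* was not tested.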

How the data were processed

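The authors deposited expected counts, estimated read numbers per gene without normalization, of which 10.1% to 12.2% per sample are not whole, together with a gene length. mm10 is the build in the submitters' processing notes. The aligner, the counting tool and the use of strand are not given in the sources used here, and the study names a TruSeq kit where the labels name a stranded one. Here counts were rounded, and differential expression was tested on all genes with edgeR 4.0.16 in R 4.3.3 (filterByExpr, TMM, quasi-likelihood test, no covariate) with Benjamini-Hochberg adjustment over 15190 genes. The standard error is the absolute log2 fold change divided by the square root of F. CPM were TMM-scaled. Positions and overlaps came from GENCODE M21 (GRCm38, the same assembly as mm10).

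Groups came from the sample titles. All 52 genes are named or counted by role. Of the other pathway list, the 8 genes past both thresholds with the smallest adjusted p-values are named. Members and lists were chosen with earlier results of these data known. Alternatives were DESeq2 1.42.0, upper-quartile and library-size scaling, immunoglobulin genes left out, other filters, a replicate block, glmTreat with a minimum fold change of 2, and each sample left out. The tests were checked on simulated data with 200 genes changed up or down by 1.5 on the log2 scale. Both recovered 90% of them. Unchanged genes made up 5.76% of the edgeR calls and 13% of the DESeq2 calls at an adjusted p-value under 0.05. Values of some single genes of the lists are not reported here.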

Additional observations from a re-analysis of the deposited data

How the results depend on the processing

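Of the 16 called genes other than *Chrd*, 13 kept direction and call under every alternative other than glmTreat, which tests against a minimum fold change. The exceptions were *Inhba*, *Smad1* and *Id4*, each with single samples left out. With each sample left out, 8 to 17 of the 47 genes were higher and 6 to 15 lower, 5 upregulated in every such fit and 1 to 3 downregulated past both thresholds, and 10 to 17 genes of the other pathway list were higher, while over all tested genes 8.42% to 22.1% were higher and 8.48% to 19.6% lower in these fits. The upper ends for the 47 genes came without TranspCtrl replicate 1. With glmTreat in edgeR and a minimum fold change of 2, 3 genes were upregulated (*Bmp2*, *Eng* and *Gdf15*) and 0 downregulated, where 1 had an unadjusted p-value under 0.05 and DESeq2 called 1 past both thresholds. Upper-quartile scaling and scaling by library size each gave 2 downregulated genes, with *Bmper* at -1.06 on the log2 scale in both, and library size left 4 upregulated. Log2 fold changes that turned sign belonged to genes not called with 6 samples. *Tgfb2* was at -0.022 with upper-quartile scaling and -0.029 with library size. With samples left out, *Tgfb2* ranged from -0.17 to 0.19, *Ltbp1* from -0.26 to 0.052, *Gdf6* from -0.35 to 0.31, *Tgfbr2* from -0.14 to 0.058, *Acvr2b* from -0.41 to 0.30 and *Smad9* from -0.060 to 0.35. The cause was not tested. Replicate numbers are not said to pair samples, and same-numbered samples had correlated deviations of 0.025, -0.00174 and 0.0419. With the replicate block, 12 of the 47 genes were higher, *Tgfb3* and *Bmpr2* added, and 7 lower, where 16.4% of all tested genes were higher and 14.6% lower. Depth limited *Chrd*, *Gdf6* and the 5 genes that were not tested.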
